A study of Rattus norvegicus with 6 samples.

Results

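The genes described here are 42 markers of blood-derived immune cells, grouped by the leukocyte they are best known for. They were 20 macrophage and myeloid genes, 11 T and natural killer (NK) cell genes, 3 B cell genes, 5 mast cell genes and 3 neutrophil or progenitor genes, chosen by name out of the 29468 gene symbols in the tables. The tables held 41 of them under the symbol used here, and Adgre1 was found under its older name Emr1 through shared RefSeq transcripts. RNA was compared between Schwann cell precursors (SCPs), the embryonic glia of growing nerves, and repair Schwann cells (RSCs), the glia of a cut adult nerve, with 3 preparations of each. SCPs were taken from sciatic nerve and brachial plexus of untreated embryos at embryonic day 14. RSCs were taken from the sciatic nerve distal to a cut, 1 week after the injury, in rats 10 weeks old. The labels give wild type LEWIS rats, whereas the study's methods describe LEWIS rats carrying a red fluorescent transgene for the grafted cells and do not say which were used for RNA. Age, injury and tissue differed together between the groups.

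Neither preparation was sorted on a surface marker. The study judged purity by staining cultured cells for Sox10 and reported that most cells of both types were labelled. Cells for RNA were resuspended in buffer instead. The study's methods describe dissociation of the nerve with collagenase and trypsin, followed by a short stay in uncoated flasks to let adhesive cells, fibroblasts and macrophages among them, settle out. Values are Cufflinks FPKM, sequenced fragments divided by the length of the transcript and by the mapped total, which can be compared between genes because they are per length. In such bulk samples, fewer cells of a type and less RNA per cell cannot be told apart. Of the Schwann lineage markers, Sox10, the transcription factor that defines the lineage, was at 179, 175 and 181 FPKM in SCPs 1, 2 and 3 and at 149, 143 and 143 in RSCs 1, 2 and 3. Of 10 tested Schwann lineage genes, 5 were higher in RSCs, 4 of them over 4-fold (S100b, Mbp, Gfap and Ngfr), and 2 were lower, Sox10 with a log2 difference of -0.30 and Ncam1 with -1.42, of which 1 was still called with median-of-ratios scaling. Other cells were also present by their markers. Of 6 tested fibroblast genes 5 were higher in RSCs, and of 7 tested endothelial genes 1 was. Of 7 tested erythroid genes 6 were higher in SCPs, where erythroid FPKM summed to 31499 to 135417 against 1867 to 2474 in RSCs. Of all tested genes, 18.1% were higher in RSCs and 22.4% were higher in SCPs. The part of these other cells in the results below was not tested. The SCP tables held more transcripts without a gene name (11355 to 12417) than the RSC tables (8815 to 9119), and this touches several of the genes below.

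A healthy adult nerve holds resident macrophages, and after a cut, blood monocytes enter the segment beyond the injury, become macrophages and clear myelin and axon debris. T cells arrive in smaller numbers, mast cells sit in the nerve's connective tissue, and neutrophils come early and leave. Macrophages depend on the receptor Csf1r and on the transcription factor PU.1, the product of Spi1, which binds purine-rich sequences around GGAA. T cells read antigen through a receptor that signals through Cd3 chains, B cells through Cd79a and Cd79b, and mast cells through the high-affinity receptor for immunoglobulin E.

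Promoters of 5 members are printed to show what the genes that moved together looked like at their start sites. They were taken from RefSeq on the GRCr8 assembly, which gave a promoter for 32 of the 42 members, and each is the 250 bases before the start, 5′ to 3′ on the strand of the gene. Lyz2 had the highest level of the set in RSCs, Cd68 is the most used macrophage marker, Mrc1 held 2 of the letter strings searched, Cybb had the value that turned on how transcripts were named, and Cpa3 was the mast cell gene with the highest level. Capitals mark the strings found. The first was AGGAAGT, which appears as ACTTCCT where it lies on the other strand. The second was GAGGAAG, which then appears as CTTCCTC. The third was the GATA string AGATAA.
Lyz2, chr7:54798012-54798261, minus strand: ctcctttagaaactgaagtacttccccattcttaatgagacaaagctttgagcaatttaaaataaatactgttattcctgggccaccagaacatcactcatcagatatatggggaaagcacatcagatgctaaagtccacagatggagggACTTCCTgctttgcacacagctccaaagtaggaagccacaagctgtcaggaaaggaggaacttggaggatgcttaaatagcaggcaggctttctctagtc
Cd68, chr10:54882442-54882691, minus strand: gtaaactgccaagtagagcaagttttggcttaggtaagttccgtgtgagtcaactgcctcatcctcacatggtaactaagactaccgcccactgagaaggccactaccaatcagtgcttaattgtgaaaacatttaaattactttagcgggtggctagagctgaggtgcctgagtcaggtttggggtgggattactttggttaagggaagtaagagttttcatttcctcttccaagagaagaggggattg
Mrc1, chr17:82157475-82157724, plus strand: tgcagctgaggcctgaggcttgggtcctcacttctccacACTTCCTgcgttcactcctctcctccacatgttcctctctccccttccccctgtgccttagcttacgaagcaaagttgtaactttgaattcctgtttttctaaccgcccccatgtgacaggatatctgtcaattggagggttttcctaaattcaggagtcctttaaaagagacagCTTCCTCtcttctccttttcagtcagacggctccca
Cybb, chrX:16065066-16065315, minus strand: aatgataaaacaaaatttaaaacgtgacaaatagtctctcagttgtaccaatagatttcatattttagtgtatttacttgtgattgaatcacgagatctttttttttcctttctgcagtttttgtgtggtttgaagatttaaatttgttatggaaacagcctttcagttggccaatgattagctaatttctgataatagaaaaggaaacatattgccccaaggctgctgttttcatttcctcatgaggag
Cpa3, chr2:104673238-104673487, minus strand: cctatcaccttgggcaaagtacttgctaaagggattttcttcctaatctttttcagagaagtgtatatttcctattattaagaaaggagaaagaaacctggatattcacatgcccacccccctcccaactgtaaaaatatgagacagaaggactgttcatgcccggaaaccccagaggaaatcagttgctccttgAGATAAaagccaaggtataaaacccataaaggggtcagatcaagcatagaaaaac

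Both strands were searched. The string GAGGAAG stood in 7 of 15 myeloid promoters (Adgre1, Csf1r, Gpnmb, Laptm5, Marco, Mrc1 and Trem2) and in 10.2% of all 33469 promoters. The string AGGAAGT stood in 4 of 15 myeloid promoters (Folr2, Lyz2, Mrc1 and Ptprc), in 4 of 9 T and NK promoters (Cd3e, Cd5, Lck and Prf1) and in 7.08% of all promoters. Their joined form GAGGAAGT, which overlaps both, was in 0 of 15 myeloid promoters, in 1 T cell promoter (Cd5) and in 2.04% of all. AGATAA, a form of the GATA motif, was in 2 of 4 mast cell promoters (Cpa3 and Fcer1a), in 2 of 15 myeloid promoters and in 10.3% of all. Cd68 and Cybb had none of these exact strings in the window, and shorter or variant forms were not searched for. A match describes letters in a window and was not tested as a binding site.

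Macrophage and myeloid genes were higher in RSCs almost throughout, often from a few FPKM to over 100 FPKM. Among the 42 members, the 3 RSC values all lay above the 3 SCP values for 34, all below for 3 (Cybb, Cd79a and Mpo), and overlapped or were equal for 5 (Marco, Klrd1, Cd79b, Ms4a1 and Kit). Of all 20494 genes above 0 in any sample, 19.6% had RSCs wholly above SCPs and 26.9% had them wholly below. The groups did not contribute evenly, with 18 of 20 myeloid, 10 of 11 T and NK, 4 of 5 mast, 2 of 3 neutrophil or progenitor and 0 of 3 B cell genes wholly higher in RSCs.

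**Figure D1:**
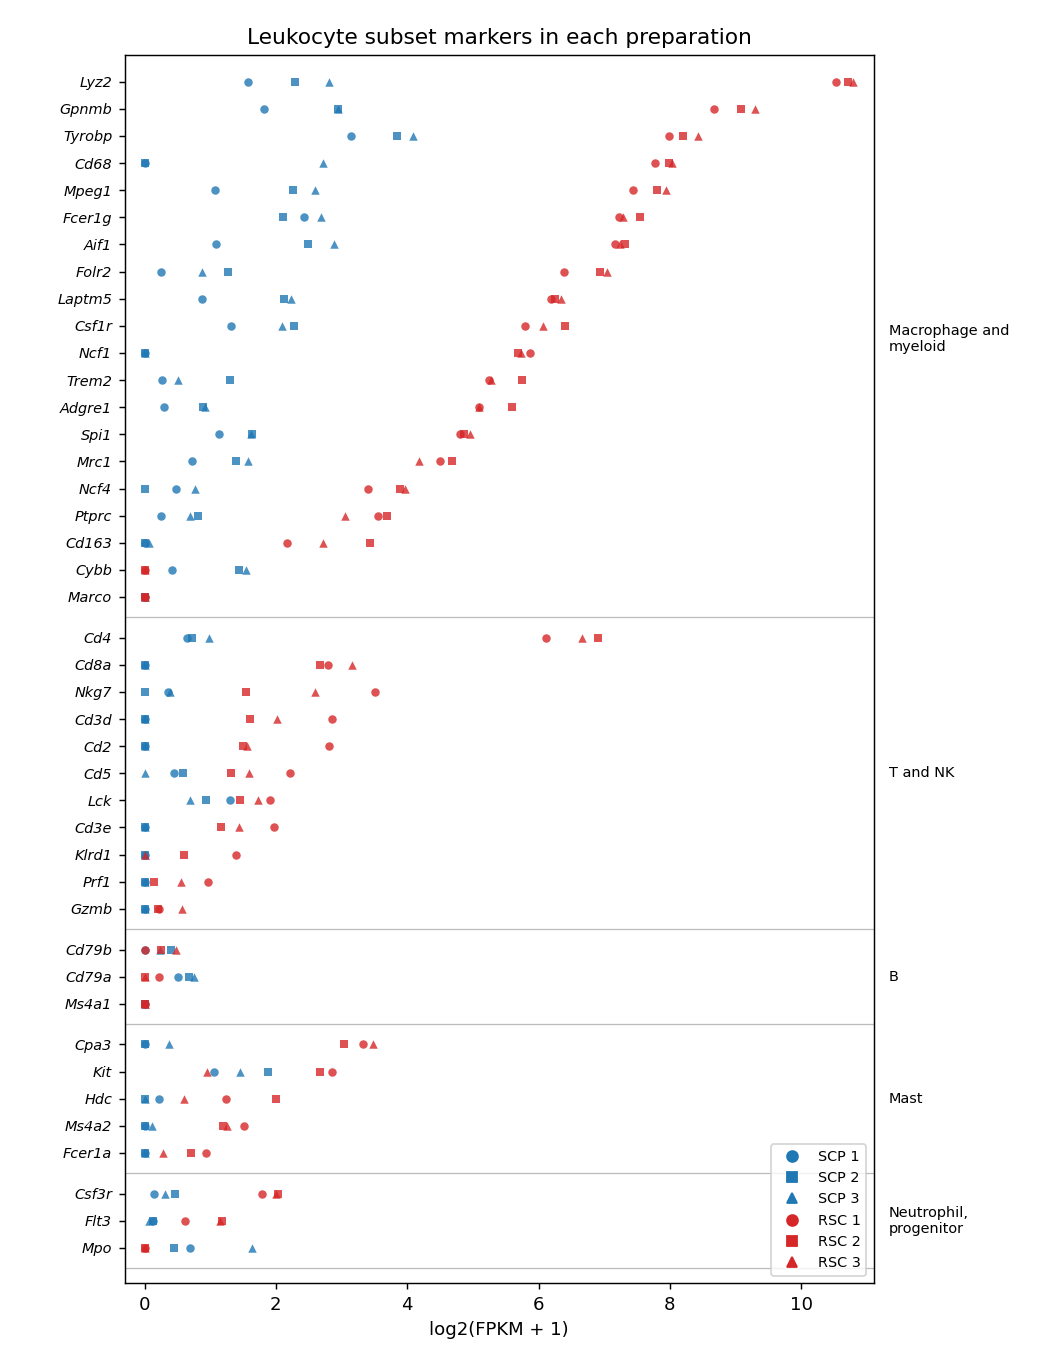
Level of each of the 42 markers in each preparation, as log2(FPKM + 1) on the horizontal axis, with SCPs in blue and RSCs in red, a shape for each replicate number, and genes ordered within each cell type by their RSC mean. Lyz2, Cd68 and Gpnmb show the widest gaps between the groups, B cell genes stay near 0 in both, and Cybb and Mpo are listed at 0 in all 3 RSCs.

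For the test, 28 members reached a mean of 1 FPKM over the 6 samples, and many reached it through RSCs alone, so counts over them describe and do not support a direction. Of the 28, 26 were higher in RSCs at p under 0.01 in limma on log2(FPKM + 1), where 18.1% of all 13003 tested genes were, and 0 were higher in SCPs, where 22.4% were. With the further demand of over 4-fold (log2 over 2), 23 were higher, against 7.81% of tested genes, and 0 were lower, against 3.78%. With no filter, 30 of 40 members above 0 were higher (13.4% of all genes) and 1 was lower (16.8%). The median difference was 4.64 on the log2 scale for the 18 tested myeloid genes and 2.16 for the 7 tested T and NK genes, beside -0.17 for all tested genes. Scaling by the median of ratios moved that all-gene median to 0.0092 and turned the split of all calls from 2351 higher and 2917 lower to 2763 and 2195, while 26 members stayed higher and the myeloid median became 4.79. The labels do not say that the preparations came from separate litters or animals, so p-values cover the spread between preparations.

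**Figure D2:**
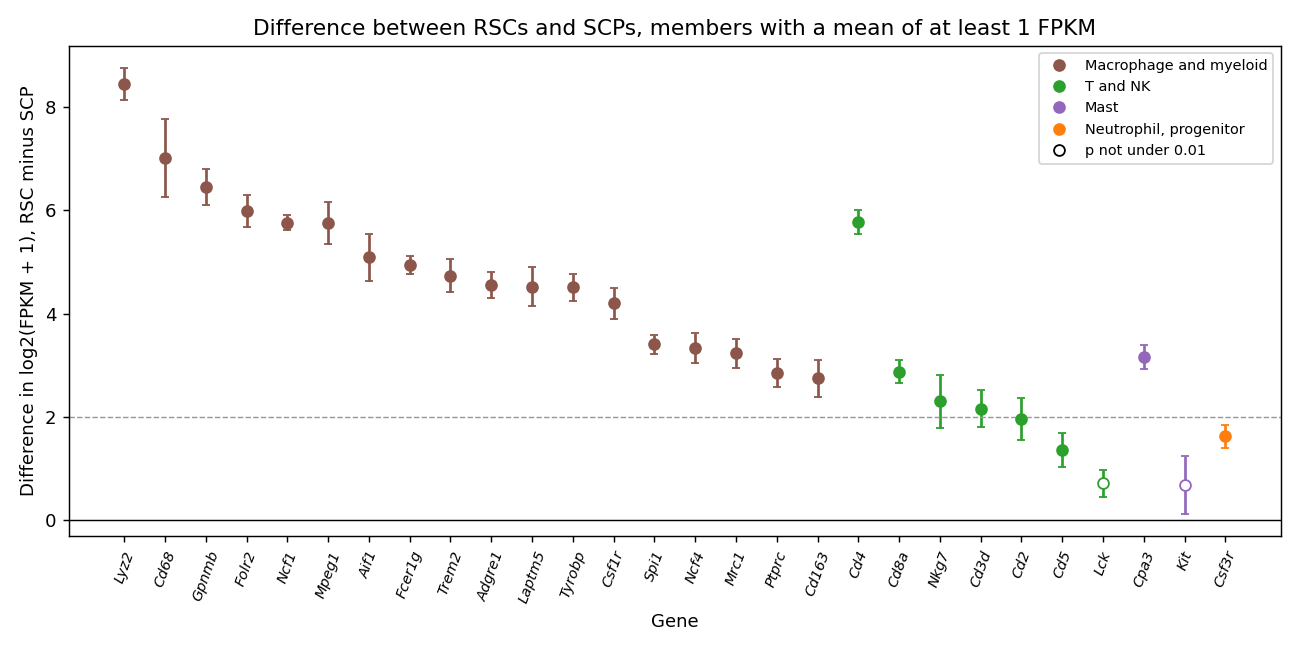
Difference in log2(FPKM + 1), RSC minus SCP, for the 28 tested members, with bars of 1 standard error from limma, 3 samples per group, and the dashed line at a 4-fold difference. All 18 tested myeloid genes lie above 2, T and NK genes other than Cd4 lie between 0.71 and 2.87, and the open circles, Lck and Kit, did not pass p under 0.01.

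The genes Ptprc and Laptm5, carried by nearly every leukocyte, give the broadest view. Ptprc, which encodes the phosphatase CD45, was at 0.193, 0.758 and 0.609 FPKM in SCPs and at 10.8, 11.9 and 7.33 in RSCs. Laptm5, a lysosomal membrane protein of blood cells, was at 0.826, 3.35 and 3.68 in SCPs and at 71.8, 75.0 and 80.3 in RSCs. Both were therefore detected at low level in every SCP preparation, and neither overlapped between groups. Ptprc was higher in RSCs by 2.85 ± 0.27 on the log2 scale (SE here and below, adjusted p = 4.9e-04) and Laptm5 by 4.52 ± 0.37 (adjusted p = 3e-04).

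The genes that set macrophage identity rose together. Csf1r, the receptor for the growth factor macrophages live on, was at 1.48, 3.83 and 3.27 FPKM in SCPs and at 54.4, 83.8 and 66.3 in RSCs. Spi1, which encodes PU.1, was at 1.21, 2.12 and 2.06 in SCPs and at 27.0, 28.2 and 29.9 in RSCs. Their differences were 4.20 ± 0.30 and 3.41 ± 0.19 (adjusted p = 1.8e-04 and 7e-05), and Spi1 was the member least spread between RSC preparations, its highest value being 1.11 times its lowest. Adgre1, the F4/80 antigen, was at 0.227, 0.850 and 0.897 in SCPs and at 33.0, 47.4 and 33.3 in RSCs. Aif1, the calcium-binding protein IBA1 used to stain macrophages, was at 1.13, 4.60 and 6.36 in SCPs and at 142, 159 and 149.9 in RSCs. These differed by 4.56 ± 0.25 and 5.09 ± 0.46 (adjusted p = 7.4e-05 and 4e-04), and the lowest RSC value of each stood far above the highest SCP value.

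The signalling adaptors of myeloid receptors were at the high end of the set. Tyrobp (DAP12), through which Trem2 signals, was at 7.87, 13.3 and 16.0 FPKM in SCPs and at 253, 294 and 342 in RSCs. Fcer1g, the common gamma chain of Fc receptors, was at 4.37, 3.31 and 5.46 in SCPs and at 149, 185 and 155 in RSCs. Tyrobp had the highest SCP level of all members, and both genes were still higher in RSCs, by 4.51 ± 0.26 and 4.94 ± 0.18 (adjusted p = 8.3e-05 and 2.5e-05). Trem2, the lipid-sensing receptor of phagocytes, was at 0.203, 1.46 and 0.418 in SCPs and at 36.8, 52.9 and 37.6 in RSCs, a difference of 4.73 ± 0.32 (adjusted p = 1.5e-04).

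Lyz2, Cd68 and Gpnmb had the 3 largest differences among the tested members. Lyz2, the lysozyme of macrophages, was at 1.99, 3.90 and 6.04 FPKM in SCPs and at 1468, 1667 and 1770.5 in RSCs, a difference of 8.44 ± 0.31 (adjusted p = 2.5e-05). Lysozyme genes are close copies of each other, and how shared reads were divided was not given in the sources used here. Gpnmb, a lysosomal glycoprotein of phagocytes that pigment cells also make, was at 2.53, 6.70 and 6.70 in SCPs and at 406, 542 and 627 in RSCs. Cd68, a lysosomal membrane protein, was listed at 0 in SCPs 1 and 2, was at 5.58 in SCP 3 and was at 218, 252 and 259 in RSCs. Cd68 thus rested on 1 SCP preparation for its lower level and had the widest error of the tested members. Mpeg1, the pore-forming protein perforin-2, was at 1.11, 3.81 and 5.06 in SCPs and at 173, 222.5 and 245 in RSCs. The differences were 6.45 ± 0.35 for Gpnmb, 7.02 ± 0.75 for Cd68 and 5.75 ± 0.41 for Mpeg1 (adjusted p = 7e-05, 7.8e-04 and 1.8e-04). Of 4 tested pigment cell genes, Dct was lower in RSCs (log2 difference -4.25) and Tyrp1 higher (1.50), and the other two did not pass p under 0.01.

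Scavenger and uptake receptors split, with 3 of the 4 higher in RSCs and Marco listed at 0. Mrc1, the mannose receptor, was at 0.648, 1.63 and 1.98 FPKM in SCPs and at 21.7, 24.7 and 17.2 in RSCs. Folr2, the folate receptor of resident macrophages in many tissues, was at 0.194, 1.41 and 0.833 in SCPs and at 82.5, 121 and 131 in RSCs. Cd163, the haemoglobin scavenger receptor, was listed at 0 in SCPs 1 and 2, was at 0.0507 in SCP 3 and was at 3.51, 9.77 and 5.57 in RSCs. The 3 genes were higher in RSCs by 3.23 ± 0.28, 5.99 ± 0.31 and 2.75 ± 0.36 (adjusted p = 3.6e-04, 6.3e-05 and 0.0016), with Cd163 the most uneven between RSC preparations of the tested myeloid genes. Marco, a scavenger receptor of alveolar and marginal zone macrophages, was listed at 0 in all 6 samples.

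The phagocyte NADPH oxidase, which makes superoxide, has a membrane core that includes Cybb and cytosolic subunits that include Ncf1 and Ncf4. Ncf1 was listed at 0 in all SCPs and was at 57.4, 50.6 and 52.0 FPKM in RSCs (adjusted p = 1.1e-05). Ncf4 was at 0.398, 0 and 0.699 in SCPs and at 9.61, 13.8 and 14.6 in RSCs, a difference of 3.34 ± 0.29 (adjusted p = 3.4e-04). Cybb went against both, at 0.341, 1.70 and 1.92 in SCPs and listed at 0 in all 3 RSCs, where Cufflinks marked its named transcripts as having low data. It missed the filter, and with no filter its difference was -1.13 ± 0.31 (adjusted p = 0.036).

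The value of Cybb turned on the naming of transcripts. Cufflinks listed transcripts without a gene name at the same locus as Cybb (rn6 chrX:14578330-14610049), at 29.7, 37.1 and 34.7 FPKM in RSCs 1, 2 and 3 and none in SCPs. With these counted for the gene, Cybb was higher in RSCs by 3.98 ± 0.31 (adjusted p = 6.5e-05), and all 19 myeloid genes above 0 were higher in RSCs at p under 0.01, beside 23.2% of all 14019 genes tested that way. Trem2 gained 40.2, 47.4 and 54.9 FPKM in RSCs in the same manner and then stood at 77.0, 100.3 and 92.5. Cd163 gained 12.4, 24.1 and 20.0 and stood at 16.0, 33.9 and 25.6, and Ncf4 gained 4.21, 1.63 and 2.06. None of these 4 genes gained in any SCP preparation, so their differences widened to 5.81 for Trem2, 4.62 for Cd163 and 3.61 for Ncf4 on the log2 scale. Cd68 gained in SCPs only, 5.92 FPKM in SCP 1 and 3.71 in SCP 3, and its difference narrowed to 5.87 ± 0.82.

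**Figure D3:**
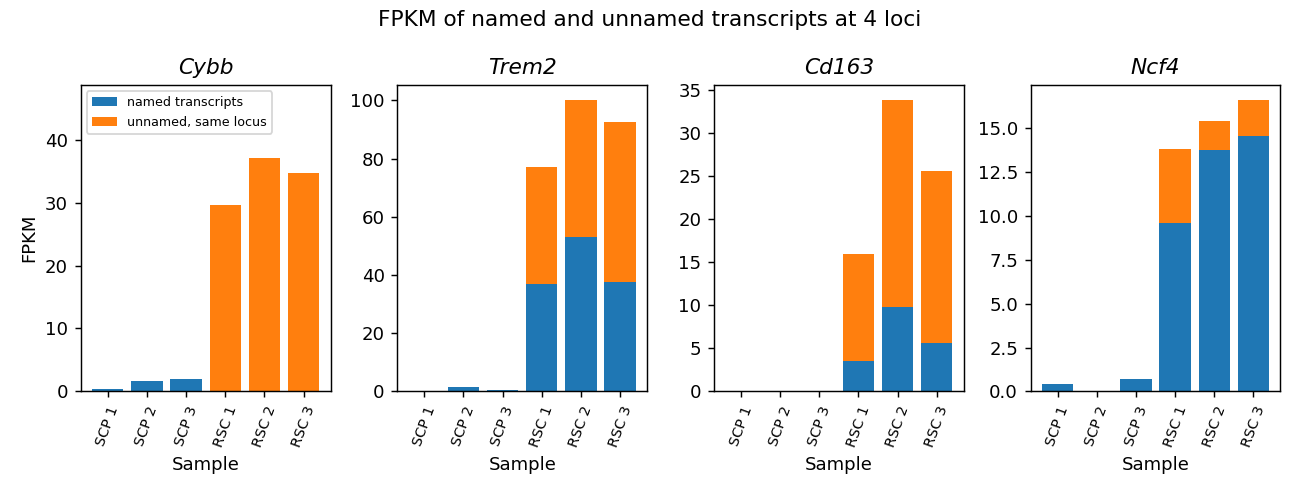
FPKM in each sample for 4 myeloid genes, with transcripts that carry the gene's name in blue and transcripts without a name at the same Cufflinks locus stacked in orange. For Cybb the RSC bars are wholly orange, for Trem2 and Cd163 the orange part exceeds or nears the blue part in RSCs, and SCP bars hold no orange part.

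Of the 11 T and NK cell genes, 6 of the 7 tested were higher in RSCs, and apart from Cd4 none had an RSC mean over 6.41 FPKM. The Cd3 chains Cd3e and Cd3d, which define T cells, were listed at 0 in all SCPs. In RSCs 1, 2 and 3, Cd3e was at 2.93, 1.25 and 1.71 FPKM and Cd3d at 6.21, 2.06 and 3.05. Both were highest in RSC 1. Cd3d passed the filter and the test (adjusted p = 0.0043), and Cd3e passed the test with no filter (adjusted p = 0.0045). Cd2, an adhesion molecule of T and NK cells, was also listed at 0 in SCPs and was at 5.99, 1.83 and 1.94 in RSCs (adjusted p = 0.0098), about as uneven as Cd3d. Cd5, a T cell receptor inhibitor, was at 0.362, 0.508 and 0 in SCPs and at 3.65, 1.50 and 2.02 in RSCs, higher by 1.37 ± 0.33 (adjusted p = 0.017). Lck, the kinase that starts T cell receptor signalling, was at 1.47, 0.916 and 0.620 in SCPs and at 2.75, 1.74 and 2.30 in RSCs. Its groups did not overlap, but the difference of 0.71 ± 0.26 did not pass (adjusted p = 0.071). Leaving out any 1 of the 3 SCPs reduced the T and NK genes called from 6 to 3, and Cd2, Cd5 and Nkg7 were the ones lost.

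Cd4 and Cd8a did not follow the Cd3 chains in their order between RSC preparations. Cd4 was at 0.569, 0.650 and 0.983 FPKM in SCPs and at 68.2, 119 and 99.6 in RSCs, a difference of 5.77 ± 0.24 (adjusted p = 3.2e-05). In the rat, monocytes and macrophages carry CD4 as well as helper T cells. Cd4 was 23.3, 95.0 and 58.4 times Cd3e in RSCs 1, 2 and 3, and it was lowest in RSC 1 and highest in RSC 2, an order shared by 6 of the 18 myeloid genes above 0 in RSCs, while 9 were lowest in RSC 1 and highest in RSC 3. With unnamed transcripts counted, the ratio to Cd3e in RSC 1 fell to 12.2 and the others did not change. The Cd4 level is summed over several transcripts, some of which Cufflinks marked as having low data in all 6 samples. Aif1, Mpeg1, Cd8a, Lck and Kit also had transcripts with a status other than OK in all 6 samples, and Csf1r in 4. Cd8a, carried by cytotoxic T cells, was listed at 0 in SCPs and was at 5.90, 5.36 and 7.98 in RSCs (adjusted p = 2.5e-04), 2.01, 4.28 and 4.67 times Cd3e. Thus neither coreceptor was highest in RSC 1, where Cd3e and Cd3d were. Without Cd4, 5 of the 6 tested T and NK genes were higher in RSCs, with a median difference of 2.06.

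Among genes of cytotoxic and NK cells, Nkg7 had a higher RSC mean than the Cd3 chains, and Prf1, Gzmb and Klrd1 were low. Nkg7, a granule protein of cytotoxic cells, was at 0.288, 0 and 0.304 FPKM in SCPs and at 10.4, 1.91 and 5.07 in RSCs, higher by 2.30 ± 0.51 (adjusted p = 0.013). Prf1, which encodes perforin, and Gzmb, which encodes granzyme B, were listed at 0 in SCPs. Prf1 was at 0.957, 0.109 and 0.463 in RSCs and Gzmb at 0.167, 0.153 and 0.486, all under 1 FPKM. Klrd1, the NK receptor chain CD94, was listed at 0 in SCPs and in RSC 3 and was at 1.63 and 0.510 in RSCs 1 and 2. With no filter, none of Prf1, Gzmb and Klrd1 passed (adjusted p = 0.09, 0.065 and 0.2).

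B cell genes stayed near 0 in both groups. Ms4a1, which encodes CD20, was listed at 0 in all 6 samples. Cd79b was at 0, 0.317 and 0.179 FPKM in SCPs and at 0, 0.188 and 0.399 in RSCs, and the groups overlapped. Cd79a was at 0.429, 0.595 and 0.680 in SCPs and at 0.171, 0 and 0 in RSCs. It was the one member called lower in RSCs at p under 0.01 with no filter (-0.57 ± 0.11, adjusted p = 0.01), at levels under 1 FPKM throughout. Of 20 further B lineage genes 2 could be tested and both rose, Blnk by 3.15 ± 0.16 and Cd180 by 1.82 ± 0.30 (adjusted p = 5.5e-05 and 0.0039). Blnk, a signalling adaptor, and Cd180, a receptor related to the Toll-like receptors, are both also made by macrophages.

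Mast cell genes were present in RSCs at a level near that of the T cell genes. Cpa3, the carboxypeptidase of mast cell granules, was listed at 0 in SCPs 1 and 2, was at 0.293 FPKM in SCP 3 and was at 9.0, 7.20 and 10.1 in RSCs, higher by 3.15 ± 0.23 (adjusted p = 2e-04). Ms4a2 and Fcer1a, the beta and alpha chains of the immunoglobulin E receptor, were lower. Ms4a2 was at 0, 0 and 0.0773 in SCPs and at 1.87, 1.30 and 1.38 in RSCs, and Fcer1a was listed at 0 in SCPs and was at 0.912, 0.627 and 0.222 in RSCs. With no filter both passed p under 0.01 (adjusted p = 0.0014 and 0.031). Hdc, which makes histamine, was at 0.161, 0 and 0 in SCPs and at 1.37, 3.02 and 0.512 in RSCs (adjusted p = 0.047 with no filter), and transcripts without a name at its locus added 1.36 in RSC 1 and 6.72 in RSC 3.

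Kit, the receptor for stem cell factor on mast cells, progenitors and pigment cell precursors, was the one tested mast cell gene that did not pass. It was at 1.08, 2.69 and 1.75 FPKM in SCPs and at 6.20, 5.37 and 0.926 in RSCs, and RSC 3 lay below every SCP. The difference was 0.69 ± 0.57 (adjusted p = 0.36). With unnamed transcripts counted, RSC 3 gained 4.23 FPKM and the difference became 1.13 ± 0.18 (adjusted p = 0.0015). Of 14 further mast cell genes 7 could be tested and 5 rose, each over 4-fold. The largest changes were those of Tpsab1, a tryptase listed at 0 in SCPs and at 6.90, 8.92 and 9.46 in RSCs, and of Ltc4s, which makes leukotriene C4 and is also active in macrophages, at 0.562, 0 and 1.17 in SCPs and at 7.20, 18.0 and 14.5 in RSCs. Tryptase genes are near copies, so reads may be shared between them.

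Neutrophil and progenitor genes were low in both groups. Csf3r, the receptor for granulocyte colony-stimulating factor, was at 0.106, 0.385 and 0.248 FPKM in SCPs and at 2.44, 3.07 and 3.01 in RSCs, higher by 1.63 ± 0.22 (adjusted p = 0.002). Flt3, a receptor of haematopoietic progenitors and dendritic cells, was at 0.0989, 0.0925 and 0.0521 in SCPs and at 0.538, 1.26 and 1.22 in RSCs, and passed p under 0.01 with no filter (adjusted p = 0.013). Mpo, the myeloperoxidase of neutrophil granules and their precursors, was at 0.620, 0.362 and 2.12 in SCPs and listed at 0 in all RSCs (not passed with no filter, adjusted p = 0.069). SCP 3, where Mpo was highest, also held the highest summed erythroid level, 135417 FPKM, and the part of blood in that value was not tested. Of 19 further neutrophil genes 4 could be tested and 2 rose, Trem1, listed at 0 in SCPs and at 7.49, 2.52 and 3.57 in RSCs, and Lcn2, at 1.53, 0.949 and 2.15 in SCPs and 10.1, 12.7 and 12.9 in RSCs. Both are also made outside neutrophils, Trem1 by monocytes and Lcn2 by macrophages and epithelia.

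Further genes of the same cell types, from lists written by hand, included many more tested and called genes on the myeloid list than on the lymphocyte lists. The myeloid list was not limited to genes that macrophages alone carry. Of 37 further myeloid genes 33 were tested and 27 were higher in RSCs, 26 of them over 4-fold, with a median of 3.32 on the log2 scale. The largest changes were in the complement genes C1qa, at 1.72, 6.79 and 6.33 FPKM in SCPs and 206, 411 and 425 in RSCs, and C1qc, at 3.32, 5.03 and 11.3 in SCPs and 303, 390 and 392 in RSCs. With unnamed transcripts counted, all 33 tested were higher. Of 30 further T and NK genes 9 were tested and 5 were higher, led by Cd7, at 5.62, 4.18 and 6.26 in RSCs, and Cd8b, the partner chain of Cd8a, at 3.73, 2.88 and 3.24, both listed at 0 in SCPs. Of 9 dendritic cell genes 6 were tested and 2 were higher, Cd83 by 2.55 ± 0.24 and Siglech by 1.06 ± 0.26 (adjusted p = 4.7e-04 and 0.018). Of 5 eosinophil genes 0 reached the filter. Of all tested genes 18.1% were higher, and the dendritic count is read against that share. Many genes of these lists reached the filter through RSCs alone, among them Cd7, Cd8b, Tpsab1 and Trem1. Such genes could not be called lower, so these counts describe and do not support a direction. In these lists 0 of the genes that reached the filter were lower, where 22.4% of all tested genes were. With no filter 1 eosinophil gene, Prg2, was lower (log2 difference -0.72, adjusted p = 0.0096). With unnamed transcripts counted, 1 gene was lower in each of the T and NK, B and dendritic lists, where 34.2% of all genes were.

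The order of levels in RSCs put myeloid genes first. Lyz2 led with a mean of 1635 FPKM, followed by Gpnmb at 525, Tyrobp at 296, Cd68 at 243, Mpeg1 at 213, Fcer1g at 163, Aif1 at 150.2 and Folr2 at 112. Lyz2 and Gpnmb each stood clear of the next gene in all 3 RSCs, whereas the ranges of neighbours from Tyrobp to Aif1 overlapped. Cd4, at 95.6, was the highest gene outside the myeloid group, and Cpa3, at 8.78, came next, below every myeloid gene above 0 except Cd163. Relative to Ptprc in the same sample, Lyz2 stood at 136, 140 and 241 times in RSCs 1, 2 and 3, Cpa3 at 0.835, 0.605 and 1.38 times and Cd3e at 0.272, 0.105 and 0.233 times. With unnamed transcripts counted for both genes, these ratios became 113, 140 and 151 for Lyz2, 0.883, 0.891 and 0.863 for Cpa3 and 0.428, 0.105 and 0.146 for Cd3e, so the order of the RSCs for Cpa3 and the spread for all 3 genes changed with the naming of transcripts.

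The RSC preparations were not alike in their leukocyte genes, and the cell types ranked them differently. RSC 1 was the lowest RSC in 15 of the 18 myeloid genes above 0, where it was the lowest in 35.1% of all 13003 tested genes. RSC 1 was the highest in 8 of the 11 T and NK genes and RSC 2 the lowest in 9, beside 35.9% and 35.6% of all tested genes. Of these 11 genes, 7 reached the filter that the tested genes passed. The further T and NK list showed RSC 1 highest in 23 of its 29 genes above 0, of which 9 reached the filter. The further myeloid list had RSC 1 lowest in 15 of 35 and highest in 10. Fibroblast genes shared the low RSC 1 with the myeloid members, with RSC 1 lowest in 6 of 6. RSC 2 was highest in 6 of 6 fibroblast genes, beside 28.9% of all tested genes. Of the 18 myeloid genes, RSC 2 was highest in 8 and RSC 3 in 9. The part of fibroblasts in the order was not tested. With unnamed transcripts counted, RSC 1 was lowest in 17 of 19 myeloid genes and highest in 8 of 11 T and NK genes. Of the 6 fibroblast genes, RSC 1 was then lowest in 5 and RSC 2 highest in 4. The highest RSC value was a median of 1.43 times the lowest for myeloid genes. It was 2.72 times for T and NK genes and 4.11 times for mast cell genes, against 1.36 times over 11145 genes. Those 11145 genes had an RSC mean of at least 1 FPKM, a bound the members were not held to. The mast cell spread depended on the naming of transcripts. With unnamed transcripts counted, Kit was at 6.20, 5.37 and 5.16 FPKM in RSCs 1, 2 and 3. Cpa3 was then at 11.5, 10.6 and 10.1, and Hdc at 2.73, 3.02 and 7.23. Low genes vary more, and T, NK and mast cell genes were low, so these medians were not tested against each other.

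**Figure D4:**
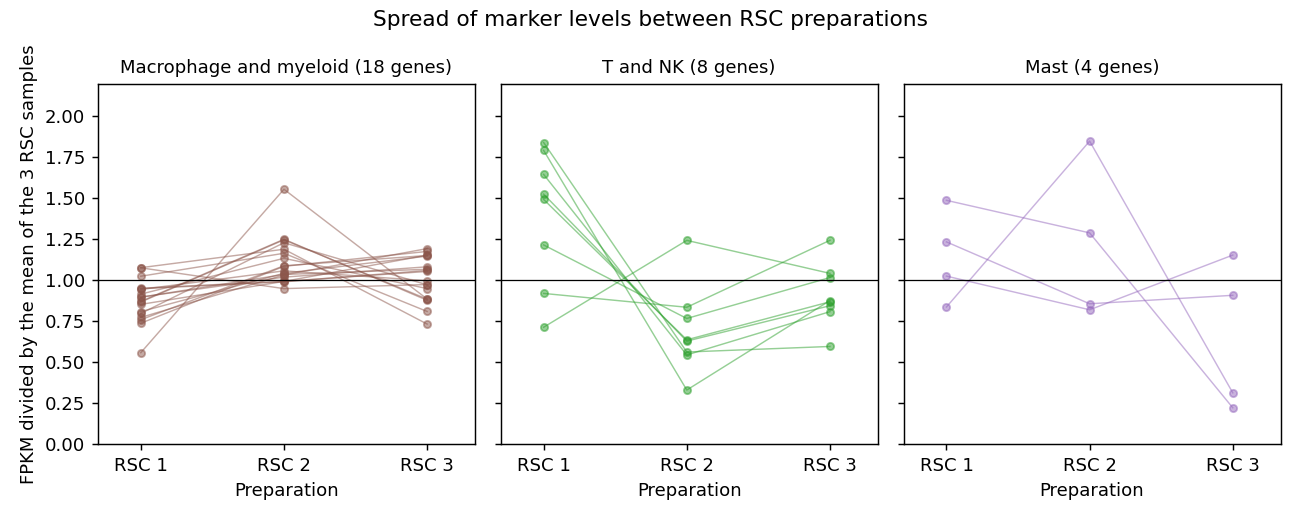
Level of each gene in RSCs 1, 2 and 3 divided by its mean over the 3 RSCs, one line per gene whose RSC mean reached 1 FPKM, for the myeloid, T and NK, and mast cell genes. Most myeloid lines start below 1 in RSC 1, most T and NK lines start above 1 in RSC 1 and fall below it in RSC 2, and mast cell lines follow no shared order.

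SCPs held the myeloid genes at low level. Of the 18 myeloid genes above 0 in SCPs, SCP 1 was the lowest in 14 and SCP 3 the highest in 12, beside 33.6% and 28.4% of all tested genes. Of 6 fibroblast genes, SCP 1 was the lowest in 4 and SCP 3 the highest in 4. Summed over the 20 myeloid genes, the level was 24.7, 52.8 and 67.6 FPKM in SCPs 1, 2 and 3 and 3217, 3841 and 4023 in RSCs 1, 2 and 3. The T and NK sum was 2.69, 2.07 and 1.91 in SCPs and 109, 135 and 125 in RSCs, most of the latter being Cd4. Of the 42 members, 11 were listed at 0 in all SCPs, and 9 of these were above 0 in at least 1 RSC.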

How the data were processed

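RNA of 3 SCP and 3 RSC preparations was sequenced by the authors as mRNA libraries. The submitters' processing notes name TopHat2 2.1.0, Cufflinks 2.2.1, FastQC 0.11.2 and the rn6 genome. The authors deposited, per sample, 1 Cufflinks table of transcripts holding FPKM and read coverage. Coverage was used for relative depth alone, 0.878 to 1 in SCPs and 0.789 to 0.841 in RSCs. The tables hold no counts, so absolute depth and counting error are unknown.

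FPKM of named transcripts were summed by symbol, leaving out 77 transcripts per table whose names had become dates. The fit took 13003 genes whose mean across the samples reached 1 FPKM. It used limma 3.58.1 (R 4.3.3) with a trend of variance, and the differences on log2(FPKM + 1) are RSC minus SCP. This scale understates the change of low genes. Calls used the study's thresholds, p under 0.01 and log2 over 2, and p-values were adjusted over every tested gene by Benjamini and Hochberg's method. Tests were two-sided. Where no filter was used, 20494 genes were fitted. Unnamed transcripts were assigned by overlap to a named gene within their own Cufflinks locus, without strand, which the tables do not give. Positions are counted from 1. Promoters were matched by symbol. Scripts were tested on simulated data.

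All members are described, and of each further list the 2 genes with the largest change at p under 0.01 are named, with the Schwann and pigment cell genes and Prg2 named after their values were seen. The members and lists were chosen with earlier results of these data known, and the lists were written by hand. Ccr2, Il7r and Jchain were not analysed here. The alternatives were pseudocount 0.1, no filter, a mean of at least 5 FPKM, quantile and median-of-ratios scaling, no variance trend, a replicate block, adjusted p, the highest transcript per gene, unnamed transcripts added and each sample left out.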

Additional observations from a re-analysis of the deposited data

Results flagged for a closer look

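Transcripts without a gene name carried signal in all 3 RSCs, above every SCP, at the position of 4 myeloid genes, outside the values the main comparison uses. At further members such transcripts were listed in only 1 or 2 of the RSCs, among them Gpnmb (77.0 FPKM in RSC 1), Fcer1g (35.0 in RSC 3), Adgre1 (11.4 in RSC 3), Mrc1 (5.09 in RSC 2 and 9.40 in RSC 3) and Ptprc (2.24 in RSC 1 and 4.40 in RSC 3). For the 4 genes listed in all RSCs, the mean over the 3 RSCs was 33.8 for Cybb, 47.5 for Trem2, 18.9 for Cd163 and 2.63 for Ncf4. For Cybb they turned the direction of the difference, and for the other 3 genes they widened it. At Cd68, Csf1r and Lyz2 such transcripts were listed in SCPs only, and the difference narrowed.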

How the results depend on the processing

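The 18 tested myeloid genes stayed higher in RSCs, and past p under 0.01, under every alternative that tested them. Their median difference was 4.64 on the log2 scale and became 5.58 with a pseudocount of 0.1. The T and NK genes were less stable. Their count of 6 became 1 at a mean of at least 5 FPKM, where the median rose from 2.16 to 5.77 because Cd4 was the one gene left, and the median was 4.85 with a pseudocount of 0.1. Leaving out 1 sample gave 3 to 6 T and NK genes, with 3 for each SCP left out. Cd2, Cd5 and Nkg7 lost their calls in 18 of 438 values for single genes, and Kit gained one with unnamed transcripts counted. With no filter or with unnamed transcripts the mast cell count rose from 1 to 3. At a mean of at least 5 FPKM, 0 mast cell and 0 neutrophil or progenitor members were tested, so none could be called. The further T and NK count of 5 became 10 with no filter, 1 at a mean of at least 5 FPKM and 2 by adjusted p. By adjusted p, 24 of the 28 tested members were higher. Deviations from the group means of samples with the same replicate number had correlations of 0.0435, -0.00491 and 0.0259 across genes. Pairs with unlike numbers ran from -0.0476 to 0.0225. The study's reporting summary describes 3 sets of experiments. Such small correlations cannot show whether samples with the same number came from the same set, and the labels do not say. The replicate block left 25 members higher, with Cd5 lost (log2 difference 1.37), and reduced the further T and NK genes called from 5 to 2 and the dendritic genes from 2 to 1. Precision rests on 3 samples per group, and values under 1 FPKM are the least certain.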
